A study of Mus musculus with 12 samples.

Results

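The genes followed here belong to the alternative pathway of complement or restrain complement at other steps, and were read in primary mammary tumours of mice, namely Cfb, Cfp, Cfi, Cd55, Cd59a, Clu, Serping1 and Cr1l. They were chosen by name, and all 8 were found among the 56860 genes of the count table and passed the filter on low counts. The samples were 12 tumours of 3 genotypes with 4 tumours each, collected after 4.5 months, and every mouse carried MMTV-PyMT, the polyoma middle T oncogene under the mouse mammary tumour virus promoter. In the design text, WT mice carried MMTV-Cre beside the oncogene, although the strain label of these samples lists only MMTV-PyMT, C3_KO mice carried MMTV-Cre with C3Tdt, an altered C3 allele, and S1pr1_KO mice carried MMTV-Cre with S1pr1fl/fl, floxed alleles of the sphingosine-1-phosphate receptor gene S1pr1. The series asks what conditional loss of C3 or of S1pr1 does to these tumours. MMTV drives Cre mainly in mammary epithelium, so fibroblasts, immune cells and vessels of a tumour can keep both genes. No label ties a tumour to its own mouse, and the p-values are thus a measure of the scatter among these samples, part of which may be technical.

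Complement is a cascade of blood and tissue proteins centred on C3. In the alternative pathway, C3b on a surface binds factor B, factor D cuts the bound factor B, and the resulting C3 convertase makes more C3b, so that the loop feeds itself. Host cells restrain the loop with proteins that take the convertase apart or help to cut C3b, and with others that block the membrane attack complex at the end of the cascade. Tumour epithelium, fibroblasts and myeloid cells can all make complement proteins locally, and tumour cells often carry membrane regulators.

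Total counts of the libraries ran from 230.4 to 484.0 M, with M for 1e6 counts. The luminal epithelial markers Epcam, Krt8 and Krt18 were present in every library, with Epcam between 376 and 801 CPM (counts per 1e6 counts of a library after scaling), while the liver gene Alb did not exceed 0.527 CPM. C3 itself was 182, 89.2, 90.3 and 43.3 CPM in WT replicates 1 to 4, 47.8, 74.5, 41.6 and 75.1 CPM in C3_KO and 273, 182, 43.4 and 152 CPM in S1pr1_KO. C3_KO tumours thus held C3 transcripts at levels that overlapped those of WT, and WT replicate 4 and S1pr1_KO replicate 3 lay within the C3_KO range. S1pr1 was 6.87, 8.02, 2.88 and 3.05 CPM in WT replicates 1 to 4, 5.94, 6.76, 9.94 and 6.95 CPM in C3_KO and 5.76, 7.43, 2.59 and 2.8 CPM in S1pr1_KO, so WT and S1pr1_KO overlapped here too. The genotypes below are those of the labels, which these transcript levels do not separate, and the file gives no level by exon. C3_KO replicate 3 stood apart by its milk protein transcripts, with a summed level of 10 genes of 96316 CPM against at most 5978 CPM elsewhere, and S1pr1_KO replicates 1 and 4 by salivary gland transcripts, with sums of 76249 and 3549.5 CPM against at most 1538 CPM. For the larger differences below, values without one of these libraries or S1pr1_KO replicate 3 are given where it moved them.

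Across the tumours, the 8 transcripts spanned a wide range on the length-scaled FPKM scale of the authors (fragments per kilobase and per 1e6 counts). Clu was the highest in each of the 12 libraries at a mean of 152 FPKM, ranging from 64.4 to 537 FPKM. Cfb followed at 22.5 ± 13.3 FPKM, Serping1 at 21 ± 9.29 FPKM and Cd59a at 16.8 ± 6.61 FPKM (SD, n = 12). These 3 could not be ordered, since Cfb was above Serping1 in only 4 of 12 libraries and Serping1 above Cd59a in 7 of 12. Cfp and Cd55 came next at 7.99 ± 3.00 and 7.91 ± 4.04 FPKM (SD, n = 12), each above the other in 6 of 12 libraries. Cr1l stood at 3.96 ± 0.784 FPKM and Cfi at 0.226 ± 0.104 FPKM (SD, n = 12), and Cr1l was above Cfi in all 12 libraries.

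No member passed the test between genotypes. In C3_KO against WT, edgeR called 0 of the 8 at an adjusted p under 0.05, beside 0% of 30660 genes tested, and none reached an unadjusted p under 0.05, beside 6.23% of all genes. In S1pr1_KO against WT edgeR also called 0 of 8 beside 0% of all genes, and none reached an unadjusted p under 0.05 beside 15.5%. In S1pr1_KO against C3_KO edgeR again called 0 of 8 beside 0%, and none reached an unadjusted p under 0.05 beside 3.4%. The groups overlapped in CPM for all 8 members in each comparison. Of all genes, 3.04% did not overlap in C3_KO against WT, 1.32% with C3_KO higher and 1.72% with C3_KO lower. The shares were 7.58%, 2.78% higher and 4.8% lower, in S1pr1_KO against WT, and 1.31%, 0.476% higher and 0.838% lower, between the knockouts. DESeq2, limma-voom with a quality weight for each library and limma on FPKM called none of the 8 either. Among all genes in S1pr1_KO against WT, DESeq2 called 955, limma-voom 7828 of 30660 and limma on FPKM 33 or 43. The counts in C3_KO against WT were 82, 5 and 1 or 0, and between the knockouts 114, 0 and 0. Without S1pr1_KO replicate 3, edgeR called 1330 genes in S1pr1_KO against WT, and still 0 of the 8 members. With C3_KO set against WT, 7 of the 8 log2 fold changes were above 0 with a median of 0.26, beside 54.2% of all genes and a median of 0.05. With S1pr1_KO set against WT, 6 of 8 were above 0 with a median of 0.28, beside 51.7% and 0.03, and both comparisons share the WT tumours. Between the knockouts, 4 of 8 were above 0 with a median of 0.07, beside 46.2% and -0.03.

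**Figure D1:**
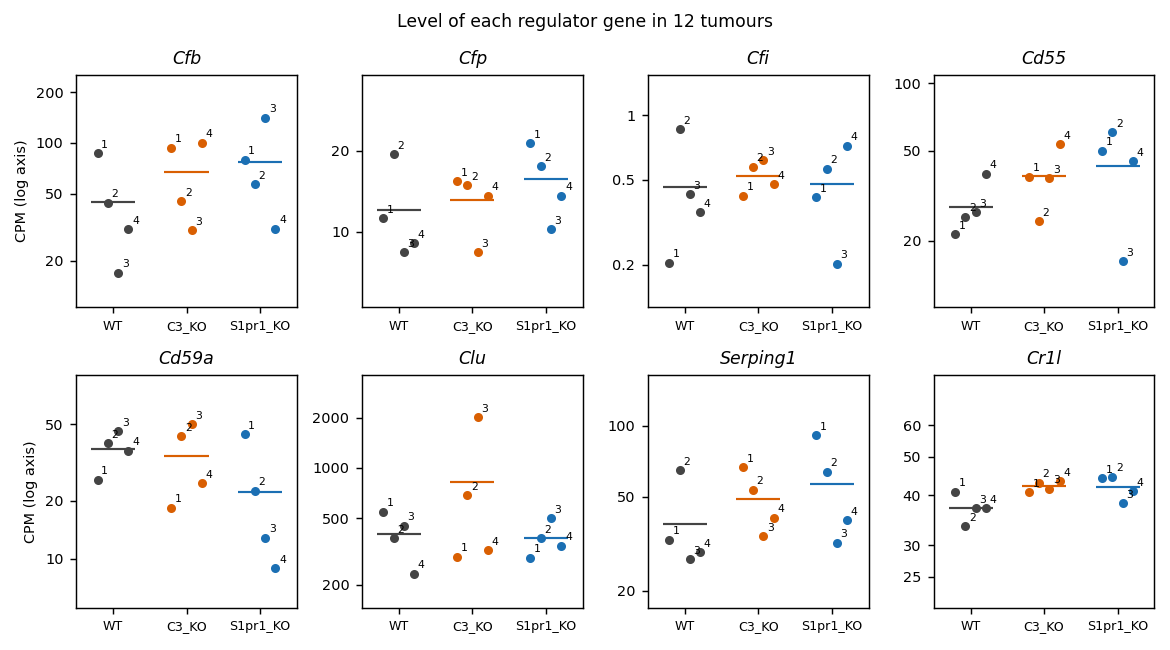
CPM of the 8 genes in each tumour on log axes, with WT in grey, C3_KO in orange and S1pr1_KO in blue, replicate numbers beside the points and a line at the mean of each genotype. The 3 genotypes overlap for every gene, Clu reaches 2004 CPM in C3_KO replicate 3, Cfb reaches 141 CPM in S1pr1_KO replicate 3, and Cr1l stays between 33.5 and 44.6 CPM.

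Cfb encodes factor B, the protease subunit of the alternative pathway C3 convertase. Its levels were 86.7, 44.2, 17.0 and 30.7 CPM in WT replicates 1 to 4, 93.7, 45.1, 30.5 and 100 CPM in C3_KO and 79.5, 56.8, 141 and 31.1 CPM in S1pr1_KO. Each genotype held both high and low tumours, and only C3_KO replicates 1 and 4 and S1pr1_KO replicate 3 lay above the highest WT tumour. Mean Cfb was 1.51-fold higher in C3_KO than in WT, with a log2 fold change of 0.59, an SE of 0.54 and a 95% interval from -0.64 to 1.82 (edgeR adjusted p = 0.799). For S1pr1_KO and WT the log2 fold change was 0.79 ± 0.54 (SE) (edgeR adjusted p = 0.493), and it was 0.36 without S1pr1_KO replicate 3 and 1.33 without WT replicate 1. Between the knockouts it was 0.20, and it turned to -0.26 without S1pr1_KO replicate 3. Without WT replicate 1, the C3_KO value was 1.13, and it was 0.32 without WT replicate 3 and 0.34 without C3_KO replicate 4. Cfb lies next to the complement gene C2 and to Nelfe in the annotation, and reads that run past a gene end can be assigned to a neighbour.

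Cfb was also among the more variable genes for its level. Its SD of log2 CPM within genotype was 0.91, larger than for 97.6% of the 1000 genes nearest in mean level. The genes most like Cfb over the 12 libraries, by Pearson's r of log2 CPM, were Rnf31 at 0.928, Sash1 at 0.922 and Fam219a at 0.921, the highest of 12997 genes searched. Rnf31 encodes HOIP, a ubiquitin ligase of the NF-kappaB pathway. Such values are descriptions of the best matches in a large search.

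Cfp encodes properdin, which stabilises the convertase and is made mainly by neutrophils, monocytes and other myeloid cells. Cfp was 11.2, 19.4, 8.37 and 9.03 CPM in WT replicates 1 to 4, 15.4, 14.9, 8.39 and 13.6 CPM in C3_KO and 21.3, 17.5, 10.2 and 13.6 CPM in S1pr1_KO. WT replicate 2 was higher than all C3_KO tumours, and only S1pr1_KO replicate 1 exceeded it. The log2 fold change was 0.12 ± 0.32 (SE) in C3_KO against WT and 0.38 ± 0.32 (SE) in S1pr1_KO against WT (edgeR adjusted p = 0.934 and 0.585). Without WT replicate 2 these values were 0.45 and 0.71, and without WT replicate 3 the first was -0.02. The first was 0.28 without C3_KO replicate 3, and the second 0.58 without S1pr1_KO replicate 3.

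Serping1 encodes C1 inhibitor, a serpin that blocks the proteases C1r, C1s and the MASPs of the classical and lectin pathways. Its levels were 32.8, 64.8, 27.1 and 29.1 CPM in WT replicates 1 to 4, 66.7, 53.6, 34.0 and 40.7 CPM in C3_KO and 91.3, 63.8, 31.9 and 39.8 CPM in S1pr1_KO. WT replicate 2 was again the high tumour of its genotype, and S1pr1_KO replicate 1 was the highest of all. The log2 fold change was 0.34 ± 0.37 (SE) in C3_KO against WT and 0.56 ± 0.37 (SE) in S1pr1_KO against WT (edgeR adjusted p = 0.826 and 0.472). Without WT replicate 2 these were 0.72 and 0.93. The first was 0.15 without C3_KO replicate 1 and 0.21 without WT replicate 3, and the second 0.29 without S1pr1_KO replicate 1. The lowest adjusted p of any member in any alternative was that of Serping1 in S1pr1_KO against WT with limma-voom, 0.0539, in a range from 0.0539 to 0.868 over its 25 alternatives.

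Cfp and Serping1 rose and fell together from tumour to tumour. Pearson's r of log2 CPM over the 12 libraries was 0.94 and Spearman's rho 0.94, with permutation p of 1e-05, the smallest that 100000 permutations can give, and 3e-05. Adjusted over the 28 pairs of members by the Benjamini-Hochberg method, these were 0.00028 and 0.00084, and no other pair passed. Without WT replicate 3 and C3_KO replicate 3, the libraries farthest from the median of Cfp, r was 0.95, and with each genotype centred on its own mean it was 0.94. Within a library both genes share the scaling and the cell composition of the tumour, and marker sums differed between tumours. The 5 highest levels of both genes were those of S1pr1_KO replicates 1 and 2, WT replicate 2 and C3_KO replicates 1 and 2. Sums of 10 fibroblast markers were 1682, 4247, 1882 and 1479 CPM in WT replicates 1 to 4, 3639, 4435, 2136 and 3177 CPM in C3_KO and 3946, 3882, 2014 and 3076 CPM in S1pr1_KO, and the same 5 tumours held the highest. They also held the 5 highest sums of 10 adipocyte markers, which ran from 43.5 to 211 CPM in WT, 87 to 237 CPM in C3_KO and 51.3 to 786 CPM in S1pr1_KO. Sums of 10 macrophage and monocyte markers ran from 286 to 415 CPM in WT, 332 to 447 CPM in C3_KO and 296 to 492 CPM in S1pr1_KO. From high to low, S1pr1_KO replicates 1 and 2 ranked 1 and 2 in these sums, and C3_KO replicate 2 ranked 5. WT replicate 2 ranked 6 and C3_KO replicate 1 ranked 8, below S1pr1_KO replicate 4 and C3_KO replicate 4. Neutrophil markers other than Ltf, which milk also holds, summed to 6.57, 15.8, 15.7 and 16.8 CPM in WT, 15.5, 11.9, 105 and 7.88 CPM in C3_KO and 10.1, 8.56, 37.3 and 10.9 CPM in S1pr1_KO. Their 2 highest sums were in C3_KO and S1pr1_KO replicates 3, where Cfp was the lowest of each genotype. Those 2 tumours also held the 2 highest sums of 10 skin keratinocyte markers, 777 and 179.6 CPM. The part of skin transcripts in the neutrophil sums was not tested. Fewer cells of a type and less RNA per cell cannot be told apart in whole tumours, and the part of these cell types in the relation was not tested. Dnm1 was among the 3 genes most like both, with r of 0.965 to Cfp and 0.949 to Serping1. Cd209g, a C-type lectin gene, and Adgrd1 followed Cfp with r of 0.968 and 0.955, and Sncg and Ssc5d followed Serping1 with r of 0.948 each.

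**Figure D2:**
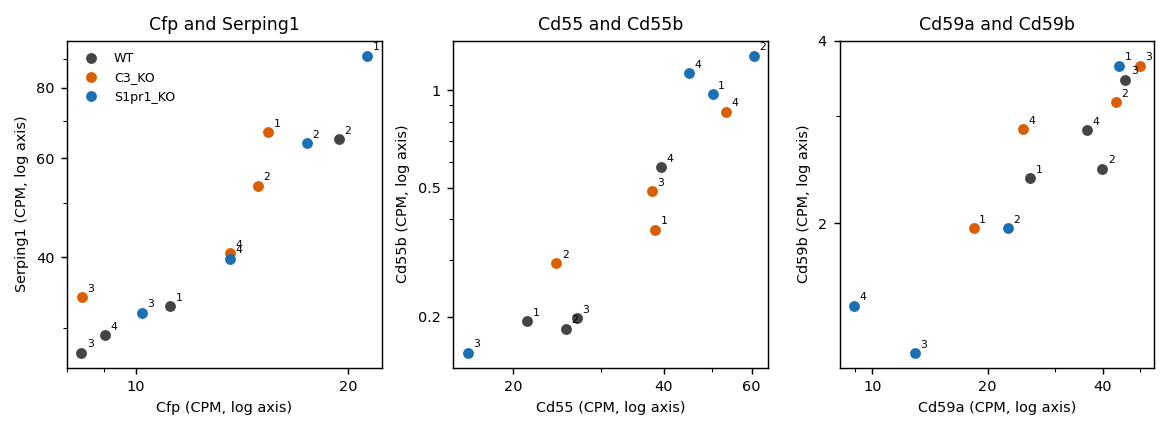
Levels of Cfp against Serping1, of Cd55 against its copy Cd55b and of Cd59a against its copy Cd59b in 12 tumours, in CPM on log axes, coloured by genotype with replicate numbers. In each panel the points lie near a rising line, with Pearson's r of log2 CPM of 0.94, 0.94 and 0.92.

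Cfi encodes factor I, the liver-made protease that cuts C3b with the help of a cofactor. It was near the lower end of measurement, with 58 to 422 counts a library. Cfi was 0.204, 0.862, 0.428 and 0.352 CPM in WT replicates 1 to 4, 0.420, 0.575, 0.615 and 0.477 CPM in C3_KO and 0.414, 0.562, 0.202 and 0.721 CPM in S1pr1_KO. The highest tumour and one of the 2 lowest were WT, and all C3_KO tumours lay within the WT range. The log2 fold change was 0.17 ± 0.49 (SE) in C3_KO against WT and 0.04 ± 0.49 (SE) in S1pr1_KO against WT (edgeR adjusted p = 0.938 and 0.977). A long noncoding gene, Gm36180, overlaps Cfi in the annotation, and reads of the 2 cannot be told apart without strand.

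Clu encodes clusterin, a secreted chaperone that also binds the forming membrane attack complex in fluid, and which the mammary epithelium is known to make. Clu was 545, 378, 450.3 and 233 CPM in WT replicates 1 to 4, 293, 688, 2004 and 321 CPM in C3_KO and 289, 380.2, 499 and 342 CPM in S1pr1_KO. A single tumour, C3_KO replicate 3, stood far above the others, and C3_KO replicate 2 was the next highest, while all S1pr1_KO tumours lay within the WT range. Mean Clu was 2.06-fold higher in C3_KO than in WT, with a log2 fold change of 1.04, an SE of 0.53 and a 95% interval from -0.16 to 2.24 (edgeR adjusted p = 0.765). Without C3_KO replicate 3 the log2 fold change was 0.11. Between the knockouts it was -1.13 ± 0.53 (SE) (edgeR adjusted p = 1), and -0.20 without that tumour. For S1pr1_KO and WT it was -0.09 ± 0.53 (SE) (edgeR adjusted p = 0.95).

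C3_KO replicate 3 also led in other transcripts. Ltf, the lactoferrin gene, which both milk and neutrophils hold, was 5787 CPM there and at most 1269 CPM in the other tumours. The other neutrophil markers summed to 105 CPM there against 6.57 to 37.3 CPM elsewhere, and 10 skin keratinocyte markers to 777 CPM against at most 179.6 CPM. The gene most like Clu over the 12 libraries was Lbp, the lipopolysaccharide binding protein gene, with r of 0.977, at 593 CPM in C3_KO replicate 3, 205 CPM in C3_KO replicate 2 and 37.3 to 110 CPM in the other tumours. Cel, a lipase gene that was also on the milk protein list, followed with r of 0.960, and Gpa33 with 0.952. Without C3_KO replicate 3 the r of Lbp, Cel and Gpa33 were 0.942, 0.888 and 0.886. The part of milk, neutrophil or skin transcripts in the Clu level of that tumour was not tested.

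Cd55 encodes decay-accelerating factor, a lipid-anchored membrane protein that takes C3 convertases apart. Cd55 was 21.3, 25.5, 26.8 and 39.6 CPM in WT replicates 1 to 4, 38.5, 24.4, 37.9 and 53.4 CPM in C3_KO and 50.2, 60.6, 16.2 and 45.0 CPM in S1pr1_KO. In S1pr1_KO, 3 of 4 tumours lay above the highest WT tumour and replicate 3 lay below the lowest. The log2 fold change was 0.60 ± 0.36 (SE) and a 95% interval from -0.21 to 1.41 in S1pr1_KO against WT (edgeR adjusted p = 0.426). It was 0.39 without S1pr1_KO replicate 2. Without S1pr1_KO replicate 3 it was 0.92 and still short of the threshold (edgeR adjusted p = 0.066, in a range from 0.063 to 0.85 over its 25 alternatives). For C3_KO and WT it was 0.45 ± 0.36 (SE) (edgeR adjusted p = 0.779), with a single C3_KO tumour above the WT range. It was 0.25 without that tumour, replicate 4, and 0.69 without WT replicate 4. The genes most like Cd55 were the ubiquitin ligase subunit gene Fbxo3 with r of 0.971, the arginyltransferase gene Ate1 with 0.965 and Gphn, the gephyrin gene, with 0.958.

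Mice carry a second copy of this gene, Cd55b, next to Cd55 on chromosome 1. Cd55b made up 0.716 to 2.45% of the counts of the copies together. It was 0.194, 0.184, 0.198 and 0.580 CPM in WT replicates 1 to 4, 0.371, 0.293, 0.488 and 0.860 CPM in C3_KO and 0.974, 1.28, 0.155 and 1.13 CPM in S1pr1_KO. The same tumours were high and low as for Cd55, with S1pr1_KO replicates 1, 2 and 4 above all WT tumours and replicate 3 below them. Pearson's r between the copies was 0.94 and rho 0.93 over 12 libraries, with permutation p of 3e-05 and 7e-05 and adjusted p of 6e-05 and 0.00013 over the 2 copy pairs tested, 0.93 without WT replicate 1 and S1pr1_KO replicate 3, and 0.96 with genotypes centred. Reads that match both copies could be counted for either, so the levels of Cd55b are uncertain. Cd55b had a log2 fold change of 1.61 ± 0.63 (SE) in S1pr1_KO against WT (edgeR adjusted p = 0.273). An antisense gene, Cd55os, overlaps Cd55 and was 0.472 to 3.56 CPM in WT, 2.38 to 9.45 CPM in C3_KO and 1.32 to 15.7 CPM in S1pr1_KO, and without strand its reads cannot be told from those of Cd55.

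The promoters of Cd55 and Cd55b are shown because the transcripts of the copies varied together. RefSeq windows of 300 bases, 250 before and 50 after the start, were at hand for 4 of the 8 members (Cfp, Cd55, Cd59a and Cr1l), on build GRCm38.p6, which is older than the GRCm39 build of the counts. The Cd55 window is chr1:130462695-130462994 and the Cd55b window chr1:130422994-130423293, both on the minus strand and written 5′ to 3′. Capitals mark the 3 runs of at least 15 bases that are identical in an alignment of the windows.
Cd55: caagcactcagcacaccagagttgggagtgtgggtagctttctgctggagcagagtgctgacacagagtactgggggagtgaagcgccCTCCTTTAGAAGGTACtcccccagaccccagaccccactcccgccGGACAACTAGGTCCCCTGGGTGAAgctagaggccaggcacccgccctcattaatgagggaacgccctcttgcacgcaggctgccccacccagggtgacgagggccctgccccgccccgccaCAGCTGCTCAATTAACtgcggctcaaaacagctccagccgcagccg
Cd55b: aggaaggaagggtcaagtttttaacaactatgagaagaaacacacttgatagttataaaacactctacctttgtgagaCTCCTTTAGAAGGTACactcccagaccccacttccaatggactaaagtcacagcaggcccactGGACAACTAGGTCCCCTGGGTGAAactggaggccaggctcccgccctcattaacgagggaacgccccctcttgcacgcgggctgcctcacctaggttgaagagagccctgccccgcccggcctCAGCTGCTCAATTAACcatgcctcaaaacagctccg
The windows were identical at 213 of 323 aligned columns, or 65.9%, with a longest shared run of 24 bases. The windows of Cd59a and its copy Cd59b were identical at 48.6% of aligned columns with no run longer than 7 bases. On either strand, the GC box GGGCGG had 2 matches in the Cd55 window and 2 in that of Cd55b, and 35.7% of all 32851 windows held at least one. The TATA box TATAAA and the CCAAT box CCAAT each had 1 match in the Cd55b window and 0 in that of Cd55, and were found in 13.6% and 37.4% of all windows. The STAT element TTCNNNGAA, present in 8.3% of all windows, had 0 matches in the windows of the 4 members and both copies.

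Cr1l encodes Crry, the rodent membrane protein that both takes convertases apart and helps factor I to cut C3b, and which nearly all mouse cells carry. Cr1l was 40.9, 33.5, 37.2 and 37.2 CPM in WT replicates 1 to 4, 40.8, 43.1, 41.6 and 43.5 CPM in C3_KO and 44.2, 44.6, 38.3 and 41.0 CPM in S1pr1_KO. The highest tumour was 1.33 times the lowest, against 2.54 to 8.6 times for the other members. In each knockout, 3 of 4 tumours lay above the highest WT tumour, by small margins. The log2 fold change was 0.18 with a 95% interval from -0.15 to 0.52 in C3_KO against WT and 0.17 with an interval from -0.16 to 0.51 in S1pr1_KO against WT, both ± 0.15 (SE; edgeR adjusted p = 0.779 and 0.586). Between the knockouts the interval ran from -0.34 to 0.33. Cr1l was the steadiest of the 8. Its SD of log2 CPM within genotype was 0.09, beside a median of 0.63 over all genes, and only 16 of 30660 genes had a smaller one. Scaled by library totals alone, the SD was 0.23 and 957 genes, or 3.12%, had a smaller one, and on log2(FPKM + 0.1) 10.7% did. In the annotation Cr1l overlaps Cd46 and Gm32313, and reads of a shared stretch could be counted for either gene.

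**Figure D3:**
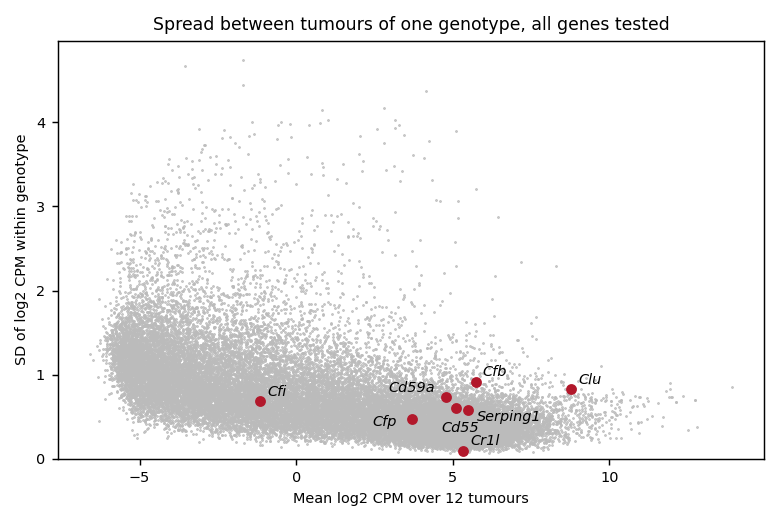
SD of log2 CPM within genotype against mean log2 CPM for all genes tested (grey) and the 8 members (red), each point a gene. Cr1l lies at the lower edge of the cloud with an SD of 0.09, and Cfb (0.91), Clu (0.82) and Cd59a (0.73) lie in its upper part for their levels.

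Cd59a encodes the broadly expressed mouse form of CD59, a lipid-anchored protein that stops the membrane attack complex from closing. Cd59a was 25.8, 39.9, 45.8 and 36.4 CPM in WT replicates 1 to 4, 18.4, 43.3, 50 and 24.7 CPM in C3_KO and 44.2, 22.6, 12.9 and 8.95 CPM in S1pr1_KO. In S1pr1_KO, replicates 2, 3 and 4 lay below the lowest WT tumour, while replicate 1 was among the high ones. Cd59a was the member with the most negative log2 fold change in S1pr1_KO against WT, -0.74 ± 0.45 (SE) and a 95% interval from -1.76 to 0.28 (edgeR adjusted p = 0.437). It was -1.26 without S1pr1_KO replicate 1, -0.48 without replicate 4 and -0.51 without replicate 3. For C3_KO and WT it was -0.12 ± 0.45 (SE) (edgeR adjusted p = 0.955), with 2 C3_KO tumours below and 1 above the WT range. Leaving out C3_KO replicate 3 gave -0.36, and leaving out its replicate 1 gave 0.09.

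The copy Cd59b, known mainly from testis, followed Cd59a. It was 2.37, 2.46, 3.45 and 2.85 CPM in WT replicates 1 to 4, 1.96, 3.17, 3.64 and 2.86 CPM in C3_KO and 3.64, 1.96, 1.22 and 1.46 CPM in S1pr1_KO. It was the gene most like Cd59a of all searched. Pearson's r and rho were both 0.92, with permutation p of 8e-05 and 0.00013, also when adjusted over the 2 copy pairs, 0.87 without S1pr1_KO replicates 3 and 4, and 0.91 with genotypes centred. Cd59b made up 5.81 to 14.0% of the counts of the copies together, and shared reads may enter both. The next most like genes were Gstt2 with r of 0.842 and Srp9 with 0.785. For Cfi the highest r were 0.938 with Ccdc50, 0.936 with Srsf10 and 0.925 with Lca5l, and for Cr1l 0.891 with Olfml2a, 0.890 with the interleukin-6 receptor subunit gene Il6st and 0.873 with Wdr7.

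**Figure D4:**
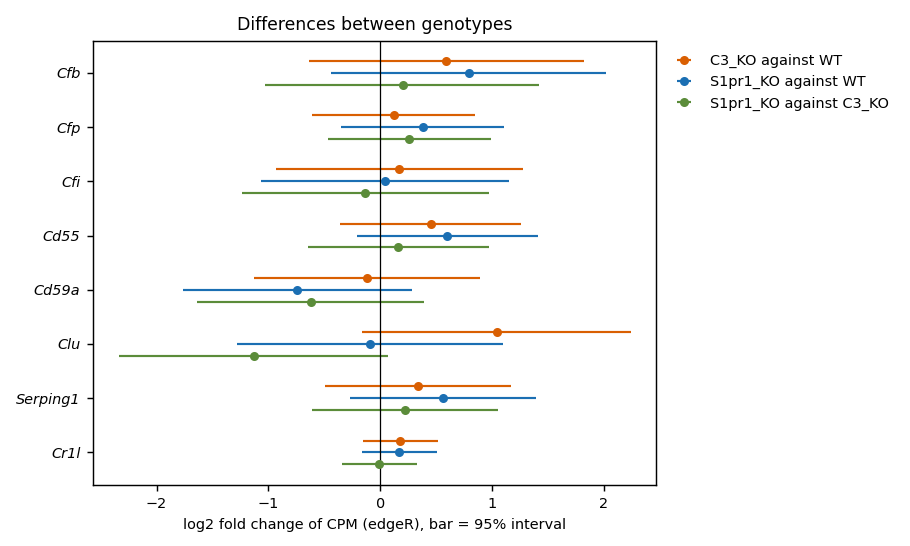
Log2 fold change of each gene from the edgeR fit (points) with 95% intervals (bars) for C3_KO against WT (orange), S1pr1_KO against WT (blue) and S1pr1_KO against C3_KO (green). Every interval crosses 0, and those of Cr1l are the narrowest, from -0.15 to 0.52, -0.16 to 0.51 and -0.34 to 0.33.

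Since complement centres on C3, each member was also set against C3 within its own tumour, as the ratio of FPKM values, which does not depend on library scaling. The ratio of Cfb to C3 was 0.867, 0.903, 0.342 and 1.29 in WT replicates 1 to 4, 3.57, 1.1, 1.33 and 2.42 in C3_KO and 0.531, 0.568, 5.93 and 0.372 in S1pr1_KO. Cfb exceeded C3 in all 4 C3_KO tumours, in 1 of 4 WT tumours and in 1 of 4 S1pr1_KO tumours, and 3 of 4 C3_KO tumours lay above the WT range. The mean log2 ratio was 0.92 ± 0.78 in C3_KO against -0.38 ± 0.82 in WT (SD, n = 4), a difference of 1.30 (two-sided exact permutation p = 0.0571, adjusted p = 0.274 over 24 tests). In S1pr1_KO it was -0.15 ± 1.83 (SD, n = 4), where replicate 3 lay apart from the others. The smallest p that 4 against 4 tumours allow is 0.0286. C3 is the gene targeted in C3_KO, and a lower C3 raises the ratio of every member, whatever the member itself does. C3 stood at log2 -0.76 ± 0.49 (SE) in C3_KO against WT (edgeR adjusted p = 0.765), and Cfb at 0.59 ± 0.54 (SE) (edgeR adjusted p = 0.799).

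Between the knockouts, the ratios of Cd59a and Cfi to C3 parted all 4 S1pr1_KO from all 4 C3_KO tumours. The share of all genes whose ratio to C3 does so was not computed. All 8 ratios had a lower mean in S1pr1_KO than in C3_KO, with log2 differences from -1.99 to -0.97, and share C3 as denominator. C3 itself stood at log2 1.44 ± 0.50 (SE) in S1pr1_KO against C3_KO (edgeR unadjusted p = 0.0128), which did not pass after adjustment. The ratio of Cd59a to C3 was 0.460, 0.352, 0.846 and 0.167 in S1pr1_KO replicates 1 to 4 and 1.09, 1.65, 3.42 and 0.936 in C3_KO, and 0.402, 1.27, 1.44 and 2.39 in WT. The difference in mean log2 ratio was -1.99 (two-sided exact permutation p = 0.0286, adjusted p = 0.274). For Cfi it was -1.49, with the same p and adjusted p in this exact test. The ratio of Clu to C3 was 9.17, 13.8, 72.1 and 6.4 in C3_KO replicates 1 to 4, 4.48 to 8.05 in WT and 1.59 to 17.2 in S1pr1_KO. Set against WT, C3_KO had 8 ratios that all had a higher mean, by 0.43 to 1.30 on the log2 scale, and all 8 share the same C3 values as denominator. None of the 24 differences passed after adjustment, with adjusted p from 0.274 to 0.943 in these exact permutation tests.

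**Figure D5:**
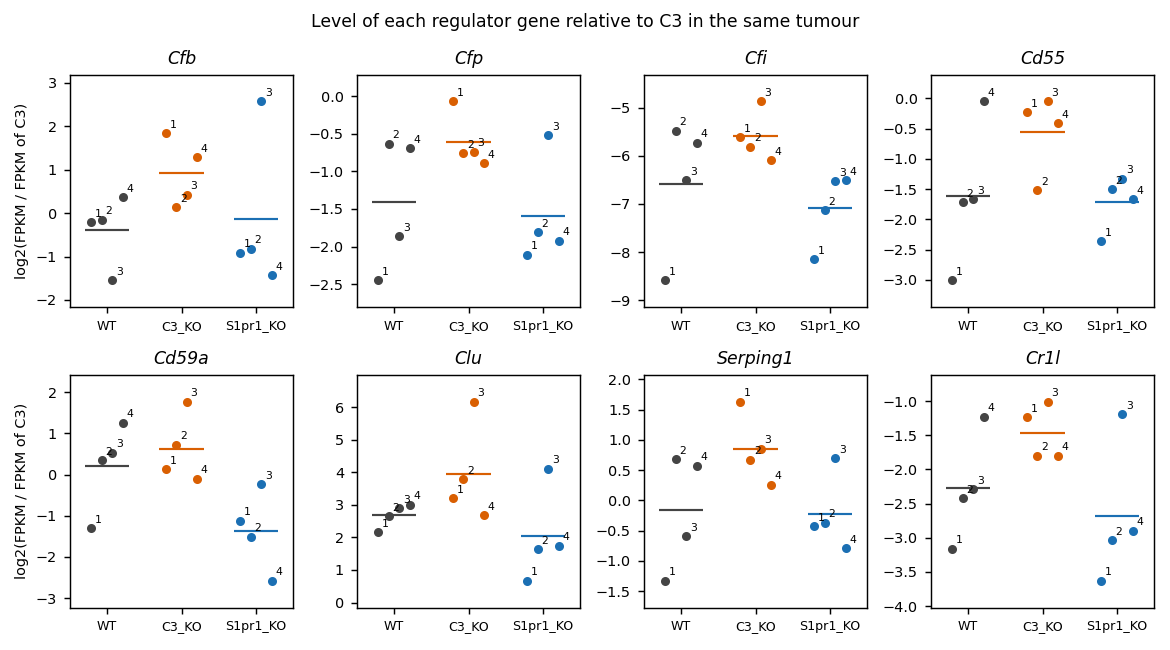
Log2 ratio of the FPKM of each gene to that of C3 in the same tumour, by genotype, with replicate numbers and a line at the mean. In S1pr1_KO the ratio of Cfb stands at 2.57 in replicate 3 and between -1.43 and -0.82 in the other tumours, and the Cd59a ratios of S1pr1_KO all lie below those of C3_KO.

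Of 20 other genes of the alternative pathway and its regulators, 16 passed the filter and edgeR called 0 of them in each comparison. At an unadjusted p under 0.05 there were 2 in C3_KO against WT, 6 in S1pr1_KO against WT and 0 between the knockouts, beside 6.23%, 15.5% and 3.4% of all genes. Set against WT, 11 of 16 were higher in C3_KO with a median log2 of 0.52, and 10 of 16 in S1pr1_KO with a median of 0.93, beside 54.2% and 51.7% of all genes. Thbd, the thrombomodulin gene, was 6.92 to 8.69 CPM in C3_KO and 2.67 to 6.66 CPM in WT with no overlap. It was the 1 gene of the 16 without overlap there, beside 3.04% of all genes. Its log2 fold change was 0.93 ± 0.38 (SE) (edgeR adjusted p = 0.765). In S1pr1_KO, Thbd was 4.71 to 15.8 CPM at log2 1.23 against WT (edgeR adjusted p = 0.234). Susd4 stood at log2 -0.92 in C3_KO against WT (edgeR adjusted p = 0.765). This value was -1.54 without C3_KO replicate 2, -0.69 without C3_KO replicate 3 and -0.68 without WT replicate 3. Cpn2, a subunit of the carboxypeptidase that trims anaphylatoxins, stood at log2 3.36 in S1pr1_KO against WT (edgeR adjusted p = 0.241). It was near the lower end of measurement in WT, with 2 to 46 counts and 0.00705 to 0.0939 CPM. S1pr1_KO replicates 1 to 4 had 1.17, 0.13, 0.041 and 0.0706 CPM. Without S1pr1_KO replicate 1, Cpn2 stood at log2 1.30. Between the knockouts, Cpn2 stood at log2 2.06 and Csmd1 at 1.05 (edgeR adjusted p = 1 each). Cpn2 was at -0.03 without S1pr1_KO replicate 1, and Csmd1 at 0.64 without S1pr1_KO replicate 2 and 1.8 without C3_KO replicate 4. Cfhr4 had 0 counts in all WT tumours and at most 12 in any tumour, and its small p-values in both comparisons with WT rest on those few counts.

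Factor D, named here after its values were seen, is the protease that starts the loop. Cfd, the adipocyte-made protease adipsin that activates factor B, was 2.76, 103, 13.9 and 4.42 CPM in WT replicates 1 to 4, 98.0, 153, 9.05 and 26.9 CPM in C3_KO and 394, 363, 10.5 and 29.8 CPM in S1pr1_KO. The 5 tumours with the highest Cfd were the 5 with the highest sums of adipocyte markers.

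The remaining complement genes gave no call over the 12 tumours either. Of 8 genes for C3 and complement receptors, 7 were higher in both comparisons with WT, with medians of 0.28 in C3_KO and 0.77 in S1pr1_KO, beside 54.2% and 51.7% of all genes higher. For S1pr1_KO and WT, 4 of the 8 had an unadjusted p under 0.05, beside 15.5% of all genes, led by Cr2, the complement receptor gene of B cells, at log2 5.54, Itgb2 at 0.85 and Itgam at 0.98, the last 2 encoding the chains of complement receptor 3 (edgeR adjusted p = 0.241, 0.241 and 0.247). Without S1pr1_KO replicate 3, Itgb2, Itgam and Thbd passed in this comparison (edgeR adjusted p = 0.0467, 0.0454 and 0.0454). They were among 1330 genes that edgeR called without that tumour, against 0 with all 12. Summed B and plasma cell markers were 213 and 104 CPM in S1pr1_KO replicates 1 and 2 and 2.94 to 24.7 CPM in all other tumours, and Cr2 was 12.8 and 6.68 CPM in these replicates and at most 1.64 CPM elsewhere. Of 16 classical and lectin pathway genes tested, 10 were higher in C3_KO and 11 in S1pr1_KO against WT, with medians of 0.32 and 0.55, and 1 had an unadjusted p under 0.05, Masp1 at log2 0.82 in S1pr1_KO (edgeR adjusted p = 0.254). Of 6 terminal pathway genes tested, 5 were higher in both, with medians of 0.34 and 0.56, and C7 in S1pr1_KO had an unadjusted p under 0.05 at log2 2.05 (edgeR adjusted p = 0.295), which was 1.03 without S1pr1_KO replicate 1.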

How the data were processed

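RNA of 12 primary mammary tumours was sequenced, 4 for each of 3 genotypes taken from the genotype label. Replicates were numbered in accession order, so a number only names a library. Per the labels' protocols, RNA came from tumours held in RNAlater and was extracted with QIAzol. The authors deposited raw counts per gene and FPKM values, and a length column (a value in another unit, bases). Of 682320 deposited FPKM values, 682317 equalled the count per kilobase and per 1e6 counts within a relative tolerance of 0.0001. Per the submitters' processing notes, StringTie and GRCm39 (mm39) were named. Aligner, counter and strand setting are not named in the sources used here.

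Counts were tested with edgeR 4.0.16 in R 4.3.3. The filter on low counts left 30660 genes, TMM factors scaled the libraries, and edgeR's quasi-likelihood test (robust) used 1 coefficient per genotype over all 12, which leaves 9 residual degrees of freedom. Benjamini-Hochberg adjustment ran over all genes, with calls at 0.05. SE came from the fold change and F, and intervals of 95% from the 9 residual degrees of freedom. The procedure was tested on simulated data with changes larger than those of the members. How well it finds smaller changes was not tested. Log2 CPM used a prior count of 2. Of counts from 1 to 50, 62.1% were even, and whether each count stands for 1 fragment was not tested. Alternatives used DESeq2 1.42.0, limma 3.58.1, other scalings, filters and units, and each library left out. In the limma-voom alternative each library had an estimated quality weight. Promoters were aligned with Biopython 1.88.

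The members, gene lists and tests were chosen with earlier results of these data known. Members, C3, S1pr1 and the copies Cd55b and Cd59b were always named, as were up to 4 called or else up to 3 genes of smallest p per complement list, and the 3 genes of highest r per member with a mean log2 CPM of at least 1, without predicted genes, pseudogenes and receptor segments. A gene that this rule names and a list of target genes are not reported here.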

Additional observations from a re-analysis of the deposited data

Results flagged for a closer look

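The ratio of Cfb to C3 in S1pr1_KO replicate 3 was 5.93, against 0.531, 0.568 and 0.372 in the other S1pr1_KO tumours. Its gap to the nearest of these was 0.847 of the whole range on the log2 scale, above Dixon's 95% critical value for 4 samples. Chance puts about 1 in 20 groups past this limit, and 48 groups of 4 were examined, 24 of levels and 24 of ratios, so 1 such value is not unusual. That tumour had the highest Cfb of the 12 tumours at 141 CPM and the lowest Cd55 and Cfi at 16.2 and 0.202 CPM, and its C3 was 43.4 CPM.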

How the results depend on the processing

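None of the 8 members was called in any of the 3 comparisons under any of the 25 alternatives, 1 of them added after the data were seen. Of 597 values of single members, 550 kept their direction and 47 reversed. Cfi was not tested under the CPM filter. Across all genes, 0 were called in each comparison. With S1pr1_KO against WT the count was 27 with library totals, 10 with no filter, 23 with the CPM filter, 68 with 2 genotypes only, 955 with DESeq2, 7828 with limma-voom, 33 on log2(FPKM + 1), 43 on log2(FPKM + 0.1), 1494 without C3_KO replicate 3 and S1pr1_KO replicate 3 together, and 0 to 1330 with 1 library left out, the highest without S1pr1_KO replicate 3. In C3_KO against WT it was 82 with DESeq2, 5 with limma-voom, 1 on log2(FPKM + 1) and 0 to 8 with 1 library left out. Between the knockouts it was 114 with DESeq2, 1 without both libraries named and 0 to 3 with 1 left out. Scaling by library totals moved the median of all genes from 0.05 to 0.19 in C3_KO and from 0.03 to 0.20 in S1pr1_KO against WT.

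Most reversals came at small values, except that of Clu between the knockouts. In S1pr1_KO against WT, Clu at -0.09 turned to 0.10 with library totals, 0.03 with upper quartile scaling, 0.04 with limma-voom, 0.11 on both FPKM scales and 0.19 without the libraries rich in milk, salivary or skin transcripts, where Cfi was -0.22. Between the knockouts, Cr1l at -0.01 turned to 0.02 with RLE, 2 genotypes only and DESeq2, 0.04 with library totals and upper quartile scaling, 0.01 with either filter and 0.03 with limma-voom and both FPKM scales. There, Cfi turned to 0.00 with library totals and 0.14 with limma-voom, and Cfb to -0.40 with limma-voom. Without the libraries rich in milk, salivary or skin transcripts Cfp turned to -0.05, Clu from -1.13 to 0.05 and Serping1 to -0.13. Without C3_KO replicate 3 and S1pr1_KO replicate 3, Cfb turned to -0.50, Cfi to 0.23 and Cr1l to 0.04. The cause was not tested.

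With 1 library left out, C3_KO against WT ran from -0.02 to 0.45 for Cfp, -0.07 to 0.66 for Cfi and -0.36 to 0.09 for Cd59a. S1pr1_KO against WT ran from -0.24 to 0.53 for Cfi and -0.23 to 0.09 for Clu. S1pr1_KO against C3_KO ran from -0.26 to 0.46 for Cfb, -0.41 to 0.14 for Cfi, -0.05 to 0.44 for Cd55, -0.08 to 0.43 for Serping1 and -0.04 to 0.05 for Cr1l. Differences in log2 ratio to C3 in S1pr1_KO against WT ran from -0.67 to 0.66 for Cfb, -0.54 to 0.08 for Cfp, -0.57 to 0.42 for Cd55 and -0.44 to 0.23 for Serping1, and that of Cd59a in C3_KO against WT from -0.08 to 0.78. A pseudocount of 0.1 FPKM reversed no ratio.

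No paired analysis was possible because the labels give no replicate numbers shared between genotypes. With 4 tumours a genotype and an SE of 0.32 to 0.54 on the log2 scale for members other than Cr1l, small differences were not detectable. Larger differences also went uncalled, and edgeR passed 0 of 30660 genes in each comparison. Clu at log2 1.04 in C3_KO against WT did not pass (edgeR adjusted p = 0.765). Nor did Cr2 at 5.54 and Cpn2 at 3.36 in S1pr1_KO against WT (edgeR adjusted p = 0.241 each).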

Other observations

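Clu and C3 are known to respond to inflammatory signals, so a list of such target genes was also read. Of 12 acute phase, NF-kappaB and STAT3 target genes, 9 were higher in C3_KO and 5 in S1pr1_KO against WT, beside 54.2% and 51.7% of all genes. The median log2 values were 0.36 and -0.10, edgeR called 0, and 2 and 0 had an unadjusted p under 0.05, beside 6.23% and 15.5% of all genes. Between the knockouts, 3 of 12 were higher in S1pr1_KO with a median of -0.52, and 4 had an unadjusted p under 0.05 with 0 called by edgeR, beside 46.2% of all genes higher and 3.4% at that p. Lcn2, the lipocalin 2 gene, held most of their summed level, at 3149 to 6002 CPM in WT, 2059 to 5129 CPM in C3_KO and 1984 to 4073 CPM in S1pr1_KO, and the other 11 genes summed to 263 to 450.2, 180.3 to 883 and 212 to 371 CPM.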
